A study of Mus musculus with 9 samples.

Results

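Potassium channel genes were described in retinal RNA from mice with oxygen-induced retinopathy (OIR) and from room-air mice. They are the genes of the count table whose symbol starts with Kcn, other than Kcnj8 and Kcnj10, with at least 90 counts summed over the 9 libraries. This gave 79 genes out of 96 Kcn genes and 26683 genes in all. Of the rest, 15 fell under the minimum and 2 were left out by name. Just inside the minimum lay Kcnmb1 with 110 counts and Kcnmb3 with 113, and just outside it lay Kcne3 with 77 counts and Kcnh3 with 60. All 79 also passed the filter on low counts that came before the tests.

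The retinas fell into 3 groups of 3 libraries, all collected at postnatal day 17. Gel libraries came from OIR mice whose vitreous was injected at postnatal day 15 with a hydrogel (PCC1/PHCF in the labels) that releases procyanidin C1, a plant polyphenol. PBS libraries came from OIR mice injected into the vitreous at the same age with phosphate-buffered saline. Normoxic libraries came from room-air mice, for which the labels name no injection. In OIR, young mice are kept in high oxygen, which stops retinal vessel growth, and abnormal new vessels form after the return to room air. No group received a hydrogel without procyanidin C1, so the drug and its carrier cannot be told apart. Oxygen history and injection likewise cannot be told apart between PBS and Normoxic. The labels used here name no strain and do not say whether replicates are separate animals or whether retinas were pooled, so p-values measure only the spread between these samples.

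Potassium channels let potassium ions leave the cell and so set the resting potential and end electrical signals. Voltage-gated (Kv) pore subunits open on depolarisation, silent Kv subunits form channels only together with other Kv subunits, inward rectifiers (Kir) and tandem-pore leak channels hold the resting potential, and calcium- or sodium-activated channels follow ion entry. Auxiliary subunits change how these pores open or reach the membrane. In the retina, the silent subunit Kv8.2 contributes to a photoreceptor current that shapes the light response, and the Kir4.1 channel of Müller glia clears potassium released by neurons. The 79 genes comprised 26 Kv pore subunits, 9 silent Kv subunits, 10 Kir genes, 9 leak channels, 7 calcium- or sodium-activated pore subunits (with their relative Kcnu1), 14 auxiliary subunits and 4 non-coding RNAs that carry a Kcn symbol.

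Library totals ran from 29324142 to 35663470 counts. PBS replicate 3 differed most from the other libraries in how counts varied with gene length, which is given with its values further on. CPM (a count scaled to its library total, in parts per 1e+06) compare 1 gene across libraries, and levels are compared between genes only as FPKM, which also divides by gene length. Together the 79 genes took 0.534%, 0.477% and 0.470% of the counts in Gel libraries, 0.488%, 0.497% and 0.387% in PBS libraries, and 0.564%, 0.578% and 0.623% in Normoxic libraries. Every Normoxic library thus lay above every Gel and PBS library, and PBS replicate 3 was the lowest. Because the retina was measured as a whole, fewer cells of a type and less RNA per cell cannot be told apart.

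**Figure D1:**
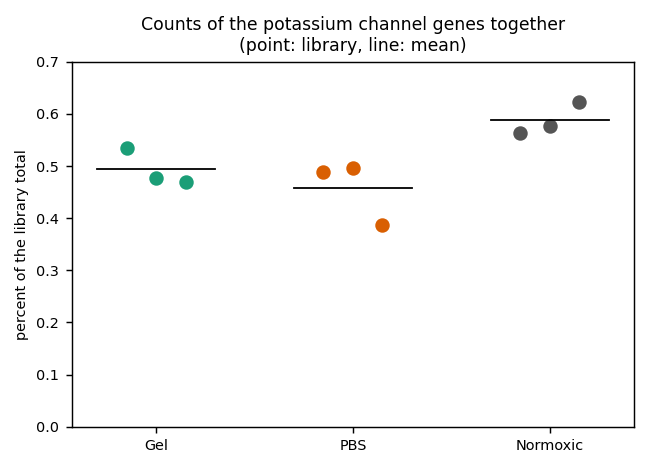
Share of each library's counts that fell on the 79 potassium channel genes (vertical axis, percent), by group, with a point per library and a line at the group mean. The Normoxic libraries, at 0.564% to 0.623%, lie above all Gel and PBS libraries, whose lowest value is 0.387%.

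Levels per length spanned a wide range. Over all libraries 17 genes had a mean of at least 10 FPKM, 34 lay between 1 and 10 FPKM and 28 lay under 1 FPKM. Among the genes described here Kcnv2, which encodes the silent subunit Kv8.2, was at 95.5 ± 0.957 FPKM in Gel, 86.6 ± 2.36 FPKM in PBS and 102 ± 3.12 FPKM in Normoxic (SD, n = 3). Kcnj14, which encodes the strong inward rectifier Kir2.4, was at 67.4 ± 4.83 FPKM in Gel, 66.2 ± 8.68 FPKM in PBS and 121 ± 4.33 FPKM in Normoxic (SD, n = 3). In Normoxic retinas its mean lay above that of Kcnv2, and in Gel and PBS retinas it lay below it, with no overlap of the SDs. The auxiliary subunit genes Kcnab2 (mean over all libraries 45.2 FPKM) and Kcne2 (39.0 FPKM) and the G protein-gated Kir gene Kcnj9 (30.7 FPKM) came after these, and the SDs of Kcnab2 and Kcne2 overlapped in PBS. Among leak channels Kcnk3 was at 11.9 FPKM and Kcnk1 at 7.60 FPKM, an order that turns with the exon lengths of another annotation (11.4 and 18.5 CPM per kilobase). Kcnma1, which encodes the BK channel pore, was at 12.5 FPKM, and the non-coding RNAs were low, at 1.52 FPKM for Kcnmb4os2 and 1.35 FPKM for Kcnmb4os1.

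**Figure D2:**
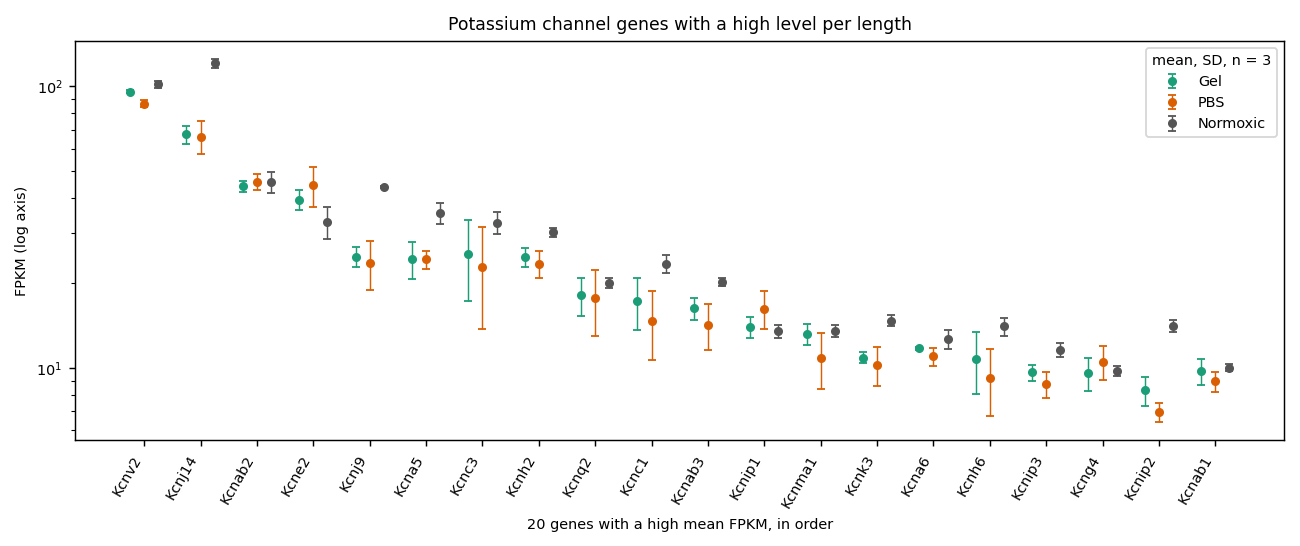
Level per length of 20 potassium channel genes with a high mean FPKM (vertical axis, FPKM on a log axis), as mean and SD over 3 libraries for Gel, PBS and Normoxic. The mean of Kcnv2 stays between 86.6 and 101.5 FPKM, and Kcnj14 and Kcnj9 lie lower in Gel and PBS than in Normoxic.

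PBS and Normoxic retinas were compared first, which asks what OIR with a saline injection changed. A gene is called where the adjusted p of the edgeR quasi-likelihood F test (Benjamini-Hochberg over the 17362 genes tested) is under 0.05. Of the 79 genes, 14 (17.7%) fell and 4 (5.06%) rose in PBS. Over all genes tested, 2.03% were called lower and 4.31% higher, so the share that fell was above the background and the share that rose was close to it. The median log2 fold change was -0.28, against 0.01 over all genes, and 58 of the 79 were negative. The CPM of all PBS libraries lay below all Normoxic libraries for 35 genes (44.3%, where the background was 14.1%), and above them for 9 genes (11.4%, background 14.9%). Without PBS replicate 3 the calls were 12 lower and 3 higher. Leaving out any single Normoxic library, PBS replicate 1, Gel replicate 2 or Gel replicate 3 brought the genes called lower to between 5 and 9, and leaving out any single Normoxic library or PBS replicate 1 brought those called higher to 1 or 2. With the Gel libraries left out of the fit 7 genes were called lower, and the calls of Kcnk3, Kcnj12, Kcnc4, Kcnd2, Kcnab3, Kcnip3, Kcnk12 and Kcnk6 ended (edgeR adjusted p 0.0531 to 0.0965). Lower calls came from the Kv pore subunits (5 of 26), Kir genes (3 of 10), leak channels (3 of 9) and auxiliary subunits (3 of 14). Of the genes called higher, Kcnq1, Kcne4 and Kcnk6 passed the filter on low counts through the Gel and PBS libraries, where they are high.

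**Figure D3:**
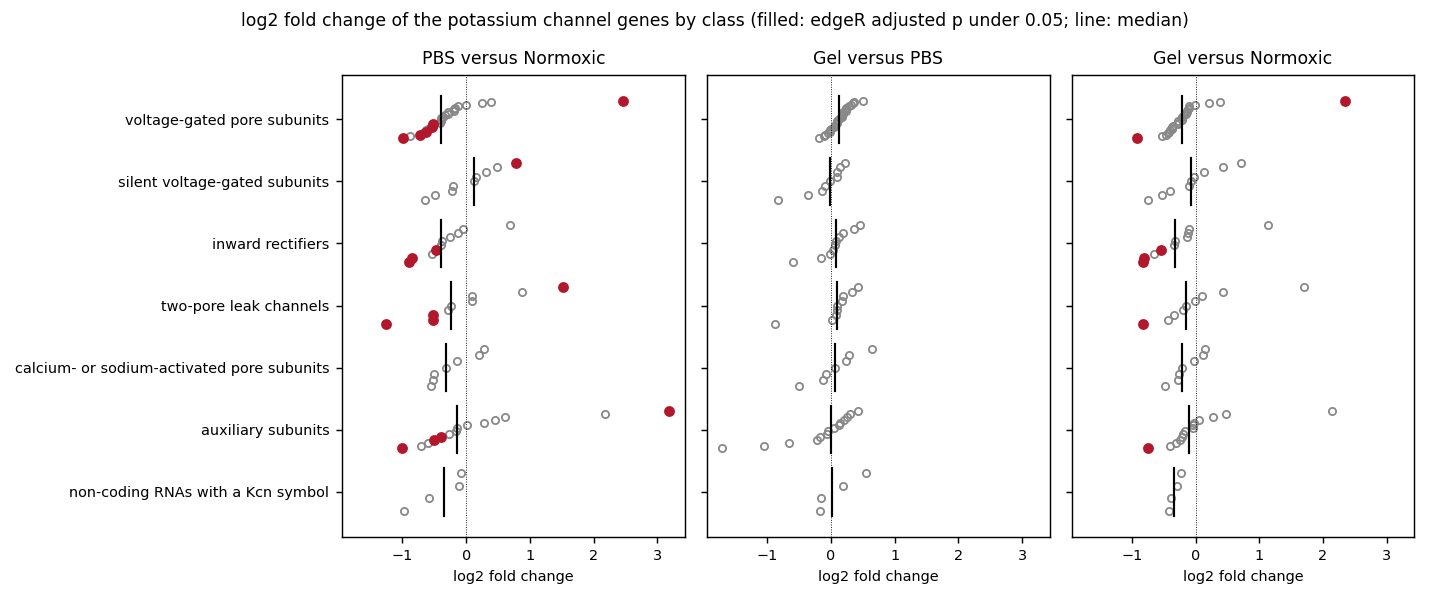
Log2 fold change of each potassium channel gene (horizontal axis) by class (rows) in the 3 comparisons, with filled points for an edgeR adjusted p under 0.05 and a line at the class median. The 18 calls in PBS versus Normoxic and 7 in Gel versus Normoxic stand against 0 in Gel versus PBS.

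Among Kv pore subunits Kcnc2, Kcna4, Kcna5, Kcnc4 and Kcnd2 fell, Kcnq1 rose, and 23 of 26 fold changes were negative (median log2 -0.40). Kcnc2 encodes Kv3.2, a channel of fast-firing neurons. Kcnc2 had 38.9, 42.0 and 45.3 CPM in Gel, 32.1, 38.5 and 30.8 CPM in PBS and 52.9, 58.1 and 56.6 CPM in Normoxic. Every PBS library lay below every Gel library, and every Gel library below every Normoxic library. The change of PBS versus Normoxic on the log2 scale was -0.72 ± 0.11 (SE, edgeR adjusted p = 0.00361). Kcnc4, which encodes the related Kv3.4, showed a smaller difference. Kcnc4 had 46.9, 44.4 and 46.5 CPM in Gel, 47.2, 48.9 and 33.8 CPM in PBS and 59.6, 61.3 and 65.1 CPM in Normoxic. The PBS and Normoxic values did not overlap, and PBS replicate 3 was the lowest. In PBS versus Normoxic its log2 fold change was -0.51 ± 0.12 (SE, edgeR adjusted p = 0.0326).

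Kcna4 and Kcna5 encode Kv1.4, a rapidly inactivating subunit, and Kv1.5, a delayed rectifier. Kcna4 had 7.41, 8.89 and 7.98 CPM in Gel, 7.14, 9.88 and 6.39 CPM in PBS and 17.5, 11.7 and 17.3 CPM in Normoxic. Normoxic replicate 2 was the lowest of its group and still above every PBS library. Its log2 fold change in PBS versus Normoxic was -0.99 ± 0.20 (SE, edgeR adjusted p = 0.014). Kcna5 had 60.5, 79.5 and 79.0 CPM in Gel, 72.6, 78.4 and 67.6 CPM in PBS and 105, 98.3 and 116 CPM in Normoxic. Gel and PBS libraries lay in the same range, below all Normoxic libraries. PBS versus Normoxic gave a log2 fold change of -0.54 ± 0.13 (SE, edgeR adjusted p = 0.0285). Kcnd2 encodes Kv4.2, the pore of a somatodendritic A-type current. Kcnd2 had 14.6, 16.7 and 16.9 CPM in Gel, 9.81, 15.2 and 12.7 CPM in PBS and 19.3, 19.7 and 19.8 CPM in Normoxic. The Normoxic libraries were close together and PBS replicate 1 was the lowest. This was a log2 fold change of -0.63 ± 0.15 in PBS versus Normoxic (SE, edgeR adjusted p = 0.0327). Its implied length in the FPKM table is 98276 bases, and with the trend of counts with gene length removed its edgeR adjusted p was 0.328. Leaving out 1 library ended the edgeR call of Kcna4 (Normoxic replicate 1 or 3, adjusted p 0.066 and 0.0689), of Kcna5 (any single Normoxic library or PBS replicate 1, up to 0.137), and of Kcnc4 and Kcnd2 (any single Normoxic library, Gel replicate 2 or Gel replicate 3, and for Kcnd2 also PBS replicate 1, up to 0.148). The call of Kcnc2 held without any single library.

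Of 4 genes for calcium-binding partners of Kv4 channels, Kcnip2 and Kcnip3 fell. Kcnip2, which encodes KChIP2, an auxiliary subunit that raises Kv4 surface expression, had the smallest p of all 79 genes in this comparison. Kcnip2 had 24.6, 24.8 and 30.1 CPM in Gel, 20.7, 24.1 and 21.7 CPM in PBS and 44.2, 47.5 and 42.9 CPM in Normoxic. Every PBS library lay below every Gel library, by a narrow margin, and all 6 lay below the Normoxic libraries. The change of PBS versus Normoxic on the log2 scale was -1.01 ± 0.11 (SE, edgeR adjusted p = 0.000773). Kcnip3, which encodes KChIP3 (also known as DREAM, a calcium-dependent transcriptional repressor), fell by less. Kcnip3 had 62.1, 55.4 and 55.7 CPM in Gel, 51.3, 58.5 and 47.3 CPM in PBS and 65.6, 73.6 and 68.6 CPM in Normoxic. Gel and PBS libraries overlapped and all lay below the Normoxic libraries. In PBS versus Normoxic its log2 fold change was -0.40 ± 0.10 (SE, edgeR adjusted p = 0.0435). Kcnip1 and Kcnip4, the other members of this family, were not called, with log2 fold changes of 0.28 ± 0.14 and -0.27 ± 0.15 (SE). Kcnab3, which encodes a cytoplasmic beta subunit of Kv1 channels, fell as well. Kcnab3 had 45.0, 37.4 and 41.3 CPM in Gel, 38.4, 41.2 and 28.4 CPM in PBS and 49.7, 53.0 and 50.9 CPM in Normoxic. PBS replicate 3 was the lowest and Normoxic the highest, with no overlap between PBS and Normoxic. Its log2 fold change in PBS versus Normoxic was -0.50 ± 0.13 (SE, edgeR adjusted p = 0.0398). The edgeR calls of Kcnip3 and Kcnab3 ended without any single Normoxic library, PBS replicate 1, PBS replicate 3, Gel replicate 2 or Gel replicate 3 (adjusted p up to 0.196), and that of Kcnip3 also ended with no low-count filter (0.0711). The promoter of Kcnip2 is shown because this gene gave the clearest decrease. It is the RefSeq sequence of GRCm38.p6, chr19:45816014-45816313, minus strand, from 250 bases before to 50 bases after the gene's start, and it holds none of the motifs searched, so no letter is in capitals.
Kcnip2: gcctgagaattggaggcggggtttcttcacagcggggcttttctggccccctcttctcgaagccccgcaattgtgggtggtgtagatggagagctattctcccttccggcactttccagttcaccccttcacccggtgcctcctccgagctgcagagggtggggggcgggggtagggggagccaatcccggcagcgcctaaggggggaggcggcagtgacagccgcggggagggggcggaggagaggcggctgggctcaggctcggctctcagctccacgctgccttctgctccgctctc

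Of the 10 Kir genes 3 fell and none rose, with a median log2 fold change of -0.39. Kcnj14 had the highest level of the class. Kcnj14 had 211, 241 and 216 CPM in Gel, 252, 199 and 206 CPM in PBS and 385, 397 and 413 CPM in Normoxic. Gel and PBS libraries overlapped, and all 6 lay far below the 3 Normoxic libraries. PBS versus Normoxic gave a log2 fold change of -0.85 ± 0.12 (SE, edgeR adjusted p = 0.0028). Kcnj12, which encodes the strong rectifier Kir2.2, fell by less. Kcnj12 had 25.6, 23.6 and 22.9 CPM in Gel, 18.0, 20.6 and 17.3 CPM in PBS and 27.4, 25.0 and 25.7 CPM in Normoxic. PBS libraries lay below all others, whereas Gel replicate 1 reached the Normoxic range. This was a log2 fold change of -0.47 ± 0.10 in PBS versus Normoxic (SE, edgeR adjusted p = 0.0228). That call ended with the length trend removed (adjusted p 0.0584) and without any single Normoxic library or PBS replicate 1 (up to 0.0937).

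Kcnj9 encodes Kir3.3 (GIRK3), a subunit of the channels that open when G protein-coupled receptors release Gβγ. Kcnj9 had 105, 95.3 and 88.9 CPM in Gel, 105, 98.2 and 70.8 CPM in PBS and 168, 171 and 169.8 CPM in Normoxic. The 3 Normoxic libraries were nearly equal and lay above all Gel and PBS libraries. The change of PBS versus Normoxic on the log2 scale was -0.89 ± 0.13 (SE, edgeR adjusted p = 0.00351). The other genes of this subfamily were not called in PBS versus Normoxic: the log2 fold change was -0.39 ± 0.11 for Kcnj5 (edgeR adjusted p = 0.0615), -0.39 ± 0.15 for Kcnj3 and -0.53 ± 0.26 for Kcnj6 (SE). Leaving out any 1 library ended neither the call of Kcnj14 nor that of Kcnj9. The promoter of Kcnj9 is shown because the next gene along the chromosome is Kcnj10, the Kir4.1 gene of Müller glia, left out by the membership rule. Kcnj10 had 70.4, 69.8 and 76.1 CPM in Gel, 50.8, 67.5 and 52.3 CPM in PBS and 81.1, 69.7 and 84.9 CPM in Normoxic. In PBS versus Normoxic its log2 fold change was -0.46 ± 0.12 (SE, edgeR adjusted p = 0.0473). Kcnj8, also left out, encodes the Kir6.1 pore of vascular KATP channels. Kcnj8 had 8.28, 11.2 and 9.91 CPM in Gel, 8.79, 8.59 and 13.0 CPM in PBS and 4.81, 4.58 and 6.01 CPM in Normoxic. Its log2 fold change in PBS versus Normoxic was 1.00 ± 0.22 (SE, edgeR adjusted p = 0.0216). PBS and Normoxic libraries did not overlap for Kcnj8 or Kcnj10, with Kcnj8 higher and Kcnj10 lower in PBS. Whether their calls hold with a library left out or under other processing was not tested. The Kcnj9 sequence is RefSeq GRCm38.p6, chr1:172329273-172329572, minus strand, with capitals for GGATTA, the reverse complement of the CRX and OTX core TAATCC, at -97 from the start, and for a match to TTCNNNGAA, the STAT site, at -222.
Kcnj9: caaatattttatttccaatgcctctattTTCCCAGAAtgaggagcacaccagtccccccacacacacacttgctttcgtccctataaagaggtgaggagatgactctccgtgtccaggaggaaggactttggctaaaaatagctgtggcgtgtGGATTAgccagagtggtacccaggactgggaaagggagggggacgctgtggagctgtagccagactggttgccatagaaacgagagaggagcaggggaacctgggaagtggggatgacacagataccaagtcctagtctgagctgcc

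Leak channels split, with 3 of 9 lower and 1 higher. Kcnk9 and Kcnk3 encode the acid-sensitive channels TASK-3 and TASK-1. Kcnk9 had 40.5, 32.2 and 32.1 CPM in Gel, 29.1, 31.2 and 18.0 CPM in PBS and 62.6, 63.1 and 61.3 CPM in Normoxic. Every Gel library lay above every PBS library and below every Normoxic library, and PBS replicate 3 was the lowest. PBS versus Normoxic gave a log2 fold change of -1.25 ± 0.17 (SE, edgeR adjusted p = 0.00233). Kcnk3 had 43.6, 40.2 and 40.4 CPM in Gel, 41.9, 43.4 and 31.8 CPM in PBS and 53.4, 56.5 and 58.3 CPM in Normoxic. Gel and PBS libraries overlapped, and the Normoxic libraries lay above all of them. This was a log2 fold change of -0.52 ± 0.11 in PBS versus Normoxic (SE, edgeR adjusted p = 0.0226). Kcnk12 encodes THIK-2, which carries little current by itself. Kcnk12 had 13.4, 11.2 and 11.7 CPM in Gel, 10.3, 12.1 and 9.79 CPM in PBS and 14.7, 14.5 and 17.0 CPM in Normoxic. PBS and Normoxic did not overlap, by a narrower margin than for Kcnk9. The change of PBS versus Normoxic on the log2 scale was -0.52 ± 0.13 (SE, edgeR adjusted p = 0.0442). Kcnk6, which encodes TWIK-2, rose at a low level. Kcnk6 had 1.31, 1.09 and 1.33 CPM in Gel, 0.860, 1.02 and 1.38 CPM in PBS and 0.580, 0.246 and 0.327 CPM in Normoxic. It rested on 27, 30 and 49 counts in PBS and 17, 8 and 10 in Normoxic, without overlap. It passed the filter on low counts through the Gel and PBS libraries, where it is high. This choice favours a rise, so its p-value serves as a description. In PBS versus Normoxic its log2 fold change was 1.52 ± 0.40 (SE, edgeR adjusted p = 0.0464). No single library ended the call of Kcnk9. That of Kcnk6 ended whichever of the 9 libraries was left out (adjusted p 0.0502 to 0.177), that of Kcnk3 without any single Normoxic library (up to 0.113), and that of Kcnk12 without any single library but PBS replicate 2 or Gel replicate 1 (up to 0.189), with the length trend removed (0.0828) and with no low-count filter (0.0655). Kcnk1, the other well-expressed leak channel, had a log2 fold change of 0.09 ± 0.16 (SE), and Kcnk2, the mechanically gated TREK-1, of -0.28 ± 0.18.

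Kcnq1 and Kcne4 rose. Both passed the filter on low counts through the Gel and PBS libraries, where they are high. This choice favours genes that differ in this direction, so their p-values below serve as a description. Kcnq1 encodes the pore subunit Kv7.1, and Kcne4 a single-span auxiliary subunit that can silence Kv7.1. Kcnq1 had 1.89, 2.19 and 1.54 CPM in Gel, 2.29, 1.70 and 2.08 CPM in PBS and 0.205, 0.246 and 0.653 CPM in Normoxic. These CPM rest on 72, 50 and 74 counts in PBS and on 6, 8 and 20 counts in Normoxic. Every Gel and PBS library lay above every Normoxic library. Its log2 fold change in PBS versus Normoxic was 2.46 ± 0.42 (SE, edgeR adjusted p = 0.00668). Without Normoxic replicate 3, the highest of its group, the log2 fold change was 3.16. Kcnq1ot1, a non-coding RNA antisense to Kcnq1, took more counts and was not called. Kcnq1ot1 had 14.7, 9.53 and 7.74 CPM in Gel, 17.1, 12.4 and 6.87 CPM in PBS and 12.4, 12.5 and 14.4 CPM in Normoxic. Its PBS and Normoxic libraries overlapped. Read strand is not given in any source used here, so counts of this pair of overlapping genes are uncertain. Kcne4 had 0.707, 0.869 and 1.01 CPM in Gel, 0.828, 0.988 and 3.43 CPM in PBS and 0.171, 0.277 and 0.131 CPM in Normoxic. The Kcne4 counts were 26, 29 and 122 in PBS and 5, 9 and 4 in Normoxic, and PBS replicate 3 stood apart from all other libraries. PBS versus Normoxic gave a log2 fold change of 3.19 ± 0.63 (SE, edgeR adjusted p = 0.014). Without PBS replicate 3 the log2 fold change was 2.19 (edgeR adjusted p = 0.0197), and the call ended without Normoxic replicate 1 (0.0684) or Normoxic replicate 3 (0.0703). The promoter of Kcne4 is shown as an example of a gene called higher. It is RefSeq GRCm38.p6, chr1:78816661-78816960, plus strand, and the capitals mark CACGTG, which holds the hypoxia response core ACGTG on both strands in overlap.
Kcne4: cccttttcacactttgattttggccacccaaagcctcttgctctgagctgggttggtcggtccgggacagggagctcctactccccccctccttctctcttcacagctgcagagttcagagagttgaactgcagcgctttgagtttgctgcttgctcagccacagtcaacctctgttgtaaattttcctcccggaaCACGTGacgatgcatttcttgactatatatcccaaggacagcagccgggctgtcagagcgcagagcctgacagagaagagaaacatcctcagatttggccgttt

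Silent subunits had 1 call, Kcnf1, whose product Kv5.1 modifies other Kv channels. Kcnf1 had 10.4, 7.96 and 9.02 CPM in Gel, 13.8, 10.9 and 10.4 CPM in PBS and 8.15, 6.40 and 5.91 CPM in Normoxic. PBS lay above Normoxic without overlap, whereas Gel reached into both ranges. This was a log2 fold change of 0.79 ± 0.17 in PBS versus Normoxic (SE, edgeR adjusted p = 0.0224). The call ended without Normoxic replicate 2, Normoxic replicate 3 or PBS replicate 1 (adjusted p up to 0.102). Kcnv2 was not called. Kcnv2 had 533, 538 and 544 CPM in Gel, 479, 503 and 481 CPM in PBS and 586, 578 and 552 CPM in Normoxic. Although all 3 PBS libraries lay below all Gel and Normoxic libraries, the log2 fold change was small, at -0.22 ± 0.09 (SE, edgeR adjusted p = 0.194). The genes with the smallest p that were not called were Kcnj5, Kcnc1, Kcna3, Kcnh2 and Kcnmb1. Kcnc1, which encodes Kv3.1, had a log2 fold change of -0.67 ± 0.19 (edgeR adjusted p = 0.0656), Kcna3, which encodes Kv1.3, -0.88 ± 0.25 (0.0658), and Kcnh2, which encodes the ERG channel, -0.36 ± 0.10 (0.0679). Kcnmb1, the BK channel subunit of smooth muscle, was near its detection limit. Kcnmb1 had 0.0337, 0.477 and 0.148 CPM in Gel, 0.956, 0.579 and 0.703 CPM in PBS and 0.102, 0.154 and 0.229 CPM in Normoxic. Its PBS libraries lay above all Gel and Normoxic libraries. It passed the filter on low counts through the PBS libraries, so this choice favours a higher PBS value. In PBS versus Normoxic its log2 fold change was 2.19 ± 0.69 (SE, edgeR adjusted p = 0.0911).

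Calcium- and sodium-activated pore subunits had no call among 7, with 5 negative fold changes and a median log2 of -0.32. Kcnma1 had 242, 209.7 and 247 CPM in Gel, 195, 233 and 147 CPM in PBS and 252, 229.6 and 235 CPM in Normoxic. The Kcnma1 values overlapped between groups, with PBS replicate 3 the lowest. Its log2 fold change in PBS versus Normoxic was -0.32 ± 0.14 (SE, edgeR adjusted p = 0.217). For Kcnt1, a sodium-activated channel, the log2 fold change was -0.55 ± 0.23, and for Kcnn2, a small-conductance calcium-activated channel, -0.52 ± 0.22 (SE, edgeR adjusted p 0.196 and 0.199). Abundant auxiliary subunits were not called. Kcnab2, the Kvβ2 subunit, had a log2 fold change of 0.01 ± 0.11 and Kcne2 of 0.45 ± 0.15 (SE, edgeR adjusted p 0.956 and 0.113). Kcne2 had 63.8, 75.5 and 70.9 CPM in Gel, 75.9, 67.7 and 92.2 CPM in PBS and 63.9, 61.7 and 49.5 CPM in Normoxic. All PBS libraries of Kcne2 lay above all Normoxic libraries, and the Gel libraries spanned the gap between these groups. The 4 non-coding RNAs had negative fold changes and no call, and their groups overlapped.

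**Figure D4:**
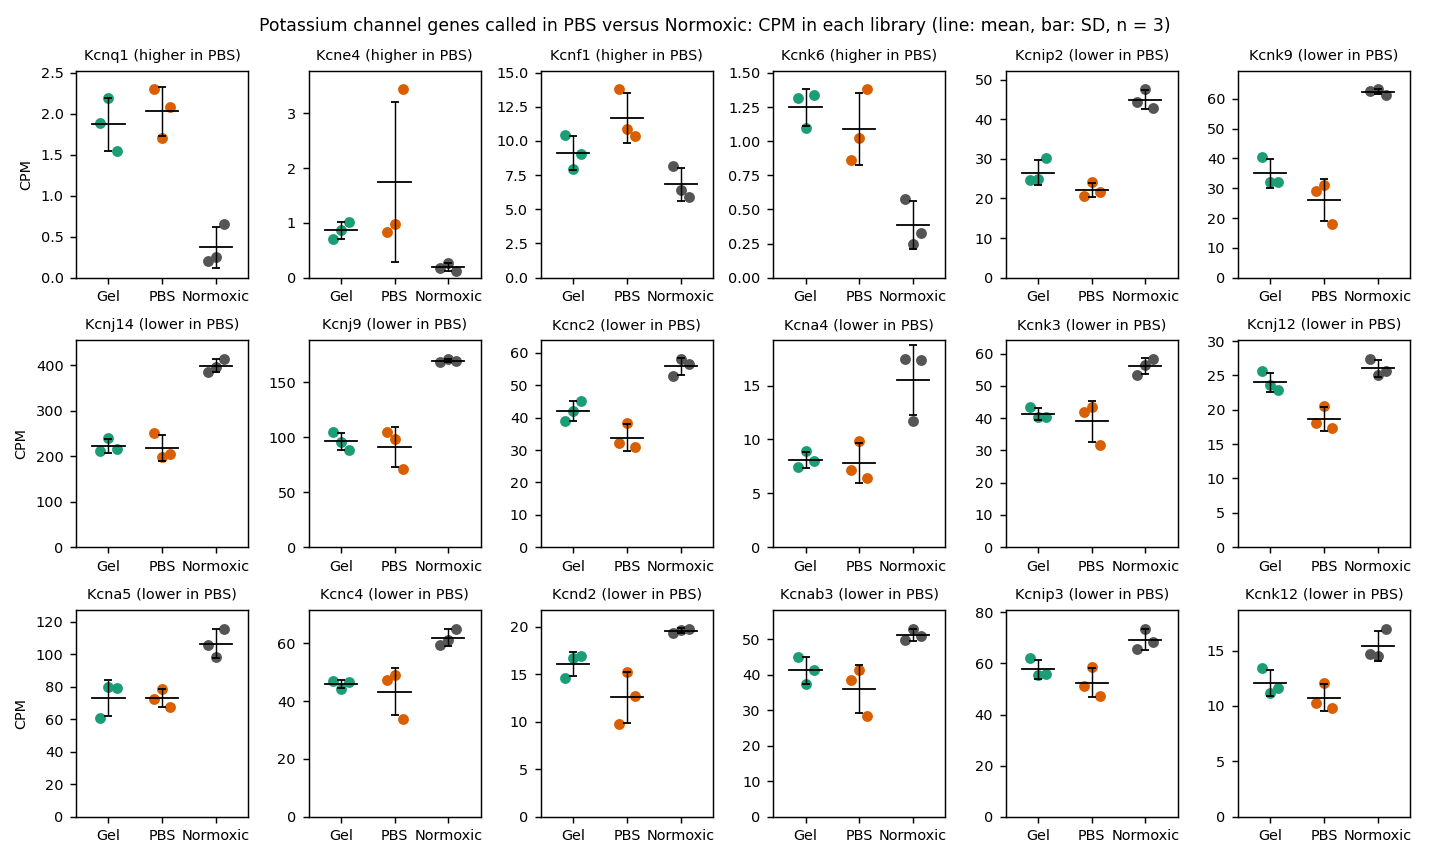
CPM of the 18 potassium channel genes called in PBS versus Normoxic in each library (vertical axes, CPM, from 0), with points for libraries, a line at the group mean and bars for the SD (n = 3). For Kcnip2, Kcnj14 and Kcnj9 all Gel and PBS points lie below the Normoxic points, and for Kcnq1 they lie above.

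Markers of retinal cell types moved with these groups. Summed amacrine markers were 840 to 1030 CPM in PBS and 1300 to 1320 CPM in Normoxic, with 2 of 6 called lower. Summed bipolar markers were 1360 to 1650 CPM in PBS and 1990 to 2030 CPM in Normoxic (1 of 7 lower), and retinal ganglion cell markers 1390 to 1670 and 1890 to 2080 CPM (2 of 8 lower). These neuronal lists were lower in PBS beside the 14 lower channel genes. Rod markers (48400 to 65700 CPM in PBS, 51500 to 52600 CPM in Normoxic) and cone markers (1140 to 1570 and 908 to 1160 CPM) had no call and overlapped, and 1 of 4 horizontal cell markers fell (50.9 to 80.9 and 78 to 91.8 CPM). Beside the 4 higher channel genes, mural cell markers were 268 to 407 CPM in PBS and 112 to 131 CPM in Normoxic (4 of 6 higher), microglia and macrophage markers 136 to 205 and 43.7 to 50 CPM (7 of 8 higher), astrocyte markers 285 to 452 and 59.3 to 81.8 CPM (3 of 4 higher), and endothelial markers 116 to 193 and 85.1 to 104 CPM (3 of 6 higher). Müller glia markers had 1 of 6 higher and 1 lower, and no retinal pigment epithelium marker was called (48.4 to 184 CPM in PBS, 19.3 to 84.5 CPM in Normoxic). Of 3 lens markers tested 1 fell (1.18 to 3.29 CPM in PBS and 4.02 to 25.1 CPM in Normoxic), and of 5 blood markers 1 rose (46.6 to 198 and 46.1 to 50.5 CPM). Ciliary body and iris markers had no call (24.1 to 82.2 and 18.3 to 35.6 CPM). None of these markers was at 0 in all libraries. The part of these shifts in the channel results was not tested.

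Other genes of membrane excitability were counted for comparison. Of 12 voltage-gated sodium channel genes tested, 3 fell and none rose (median log2 fold change -0.45). Scn1a, a pore subunit of neurons, averaged 46.3 ± 7.74 CPM in PBS retinas and 73.0 ± 5.64 CPM in Normoxic retinas (SD, n = 3, edgeR adjusted p = 0.00672), and Scn2a fell as well (0.0495). Of 18 voltage-gated calcium channel genes, Cacna2d3, an auxiliary subunit gene, fell and none rose (median -0.32). The 9 tested genes of HCN and cyclic nucleotide-gated channels had no call and a median of 0.04. Among 9 genes of the sodium-potassium pump Fxyd1, a regulatory subunit, rose, and among 5 potassium-chloride cotransport genes Slc12a4 rose (edgeR adjusted p 0.0214 and 0.0394). Summed, the cotransport genes were nonetheless lower, at 885 to 1510 CPM in PBS and 1720 to 1820 CPM in Normoxic (median log2 fold change -0.09). The summed pump genes overlapped, at 5610 to 7090 and 6770 to 7560 CPM (median 0.19). None of 10 tested auxiliary subunit genes outside the Kcn symbols was called, among them Dpp6, a partner of Kv4, at -0.23 ± 0.11 (log2, SE).

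Gel and PBS retinas were then compared, both with OIR and an injection. None of the 79 genes was called by edgeR, DESeq2 or limma-voom, and 7 (8.86%) had an unadjusted edgeR p under 0.05. Over all 17362 genes tested 0% were called and 5.54% had an unadjusted p under 0.05. The median log2 fold change was 0.09 (-0.01 over all genes), and 52 of 79 were positive. All Gel libraries lay above all PBS libraries for 6 genes (7.59%, background 2.73%) and below them for 3 genes (3.8%, background 5.15%). In this comparison the log2 fold change correlated with gene length (Spearman 0.24 over the 79 genes, 0.32 over all genes tested), and these channel genes are long. The part of length in these shares was not tested. The smallest p was that of Kcnj12, whose log2 fold change was 0.37 ± 0.10 (SE, 95% interval 0.14 to 0.60, edgeR adjusted p = 0.612). Kcnc2 and Kcnk9 followed in the same direction, at 0.32 ± 0.11 and 0.43 ± 0.17 (adjusted p 0.704 and 0.84). The 3 genes with all Gel libraries below PBS were Kcns1, Kcnmb1 and Kcnu1, the last of these named after its values were seen. Kcns1 had 1.18, 1.04 and 1.19 CPM in Gel, 2.26, 2.21 and 1.63 CPM in PBS and 1.67, 1.69 and 1.57 CPM in Normoxic. Kcns1, a silent subunit gene, had Gel libraries below both other groups. The log2 change of Gel versus PBS was -0.84 ± 0.25 (SE, edgeR adjusted p = 0.627). Kcnmb1 had a log2 fold change of -1.70 ± 0.65 (adjusted p = 0.809), which rested on 1, 17 and 5 counts in Gel and 30, 17 and 25 counts in PBS, and it was -2.96 without Gel replicate 2. Its passage of the low-count filter through the PBS libraries favours this direction too. Summed mural markers were 183 to 239 CPM in Gel and 268 to 407 CPM in PBS, astrocyte markers 145 to 190 and 285 to 452 CPM, microglia and macrophage markers 96.1 to 133 and 136 to 205 CPM, and blood markers 31.1 to 46.1 and 46.6 to 198 CPM. These sums did not overlap, and none of their genes was called. The sums of the other cell type lists overlapped between Gel and PBS, also without a call. Amacrine markers, for example, were 1010 to 1080 and 840 to 1030 CPM, and endothelial markers 124 to 169 and 116 to 193 CPM. The part of any list in the channel values was not tested.

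Gel and Normoxic retinas were compared last, with the same Normoxic libraries that served for PBS. Of the 79 genes 6 (7.59%) fell and 1 (1.27%) rose, where 0.288% of all genes tested were called lower and 1.12% higher. The median log2 fold change was -0.21 (0.00 over all genes), and 63 of 79 were negative. All Gel libraries lay below all Normoxic libraries for 27 genes (34.2%, background 12.8%) and above them for 5 (6.33%, background 11.1%). The genes that fell were Kcnj14, Kcnip2, Kcnj9, Kcnj5, Kcnk9 and Kcna4, and Kcnq1 rose. As stated above, Kcnq1 passed the low-count filter through the Gel and PBS libraries, where it is high. For Kcnj14 the log2 fold change was -0.83 ± 0.12 in Gel versus Normoxic and -0.85 ± 0.12 in PBS versus Normoxic, for Kcnip2 -0.75 ± 0.11 and -1.01 ± 0.11, for Kcnj9 -0.81 ± 0.13 and -0.89 ± 0.13, and for Kcnk9 -0.83 ± 0.17 and -1.25 ± 0.17 (SE). Kcna4 had -0.92 ± 0.20 and -0.99 ± 0.20, and Kcnq1 2.34 ± 0.42 and 2.46 ± 0.42. The edgeR adjusted p in Gel versus Normoxic ran from 0.00902 for Kcnj14 to 0.0466 for Kcna4. The difference between these effects is that of Gel versus PBS, in which no gene was called.

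Kcnj5, which encodes Kir3.4 (GIRK4), was called in Gel versus Normoxic, and in PBS versus Normoxic it was not (adjusted p = 0.0615 by edgeR). Kcnj5 had 15.3, 16.0 and 15.5 CPM in Gel, 18.3, 18.1 and 15.9 CPM in PBS and 21.9, 22.5 and 24.4 CPM in Normoxic. Gel replicates 1 and 3 lay below all PBS libraries, Gel replicate 2 just above the lowest of them, and all 6 lay below the Normoxic libraries. The log2 change of Gel versus Normoxic was -0.55 ± 0.11 (SE, edgeR adjusted p = 0.0376). Its difference between Gel and PBS was not called (log2 -0.16). Leaving out 1 library often ended a call. Those of Kcnj14 and Kcnip2 ended without Normoxic replicate 2, and for Kcnj14 also Normoxic replicate 3 or Gel replicate 3 (adjusted p up to 0.0587) and for Kcnip2 also Normoxic replicate 1 or Gel replicate 2 (up to 0.0637). Those of Kcnj9 and Kcnk9 ended without any single Normoxic library, Gel replicate 2 or Gel replicate 3 (up to 0.0889 and 0.196), that of Kcnq1 without Normoxic replicate 1, Normoxic replicate 2, Gel replicate 2 or Gel replicate 3 (up to 0.141), and those of Kcna4 and Kcnj5 without any single Normoxic or Gel library (up to 0.195), for Kcnj5 also without PBS replicate 2 (0.056) and with no low-count filter (0.0528). The call of Kcna4 also ended with limma-voom (0.0619). Without Normoxic replicate 3 the log2 fold change of Kcnq1 was 3.05. Without PBS replicate 3, 10 genes were called lower and 3 higher. This library is in neither group compared but is in the shared fit, and the cause of the change was not tested. Without any single Normoxic library, Gel replicate 2 or Gel replicate 3, 0 or 1 gene was called lower, and without Normoxic replicate 1, Normoxic replicate 2, Gel replicate 2 or Gel replicate 3 the number called higher was 0. Summed amacrine markers were 1010 to 1080 CPM in Gel and 1300 to 1320 CPM in Normoxic, bipolar markers 1530 to 1760 and 1990 to 2030 CPM, and retinal ganglion cell markers 1380 to 1730 and 1890 to 2080 CPM, with no call. Microglia and macrophage markers were 96.1 to 133 CPM in Gel and 43.7 to 50 CPM in Normoxic (5 of 8 higher), astrocyte markers 145 to 190 and 59.3 to 81.8 CPM (2 of 4 higher), endothelial markers 124 to 169 and 85.1 to 104 CPM (1 of 6 higher), mural markers 183 to 239 and 112 to 131 CPM (0 of 6), and retinal pigment epithelium markers 129 to 208 and 19.3 to 84.5 CPM (0 of 5). Of 8 rod markers 1 was called higher, while their sums overlapped (47000 to 59000 CPM in Gel, 51500 to 52600 CPM in Normoxic). No marker of the remaining lists was called. The part of these lists was not tested.

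Gene length was checked because these channel genes are long and libraries differed in how counts varied with length. The FPKM table implies 1 length per gene, with a median of 5901 bases for the 79 genes and 3650 bases for all genes tested. Against the exon lengths of a mouse annotation of another build the implied length was larger by a median ratio of 1.103, and it was over 2 times larger for 17 genes, among them Kcnip4 (164773 bases, ratio 45.4), Kcnd2 (ratio 19.1) and Kcna4 (33502 bases, ratio 6.93). FPKM of those 17 would be higher with the shorter lengths, while the 5 genes with the highest FPKM held their ranks. The Spearman correlation across genes between length and a library's deviation from its group was -0.49 over all genes tested and -0.44 over the 79 genes in PBS replicate 3, and 0.41 and 0.45 in PBS replicate 2. Genes are not independent replicates, and these values describe the libraries. The correlation of the log2 fold change with length was -0.12 over the 79 genes in PBS versus Normoxic and -0.30 over all genes tested. In Gel versus PBS these values were 0.24 and 0.32, and in Gel versus Normoxic 0.02 and -0.17. With the trend removed from each library, 13 of the 79 genes were called lower and 4 higher in PBS versus Normoxic, with a median log2 fold change of -0.22. The calls of Kcnj12, Kcnd2 and Kcnk12 ended, and Kcnc1 and Kcnh2 were called. In Gel versus PBS none of the 79 genes was called with the trend removed. The log2 fold changes of Kcnj12, Kcnc2 and Kcnk9 were then 0.30, 0.24 and 0.36, against 0.37, 0.32 and 0.43 before. Those of Kcns1 and Kcnmb1 were -0.82 and -1.71, against -0.84 and -1.70. In Gel versus Normoxic the call of Kcna4 ended (adjusted p 0.052), and those of Kcnk6 and Kcna5 were gained. Kcnk6 passed the low-count filter through the Gel and PBS libraries, where it is high, so its call serves as a description.

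**Figure D5:**
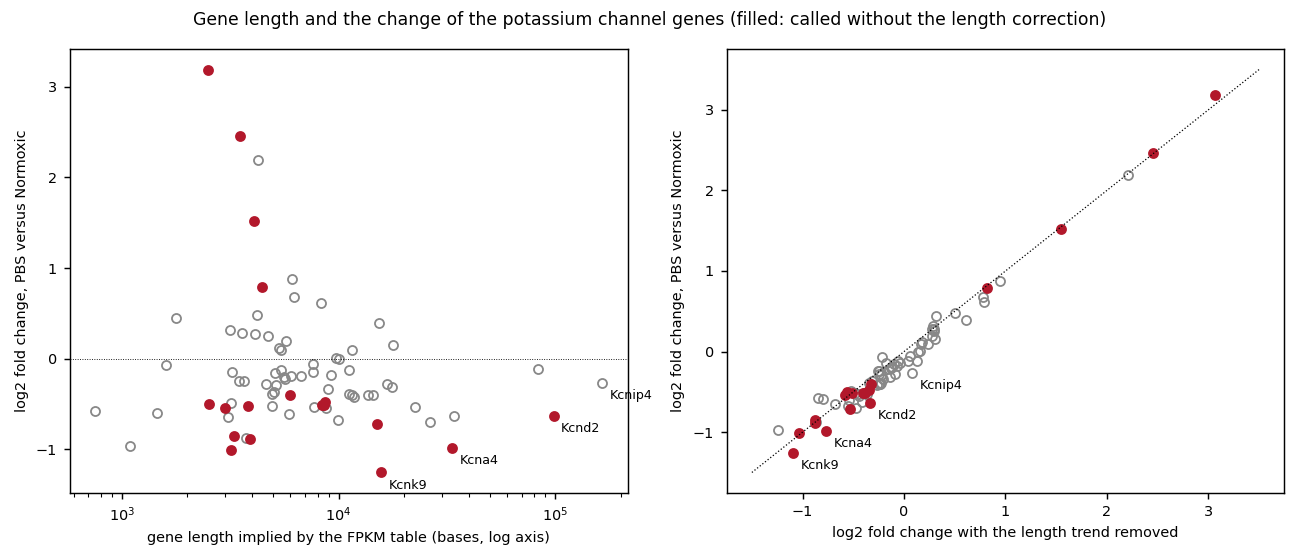
Log2 fold change of the 79 potassium channel genes in PBS versus Normoxic against the length implied by the FPKM table (left, bases, log axis) and against the same fold change after the length trend was removed from each library (right, dotted line at equality). Filled points are the 18 genes called without the correction, and Kcnd2 at 98276 bases is the called gene that moved to an adjusted p of 0.328.

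The promoter windows were searched on both strands for ACGTG (hypoxia response core), TAATCC (CRX and OTX core), TGANTCA (AP-1 site) and TTCNNNGAA (STAT site). Windows were given for 56 of the 79 genes, 77 windows in all. ACGTG was present in 15.6% of these windows and in 19.6% of the 32851 windows of the same length over all genes, TAATCC in 2.6% and 7.06%, TGANTCA in 3.9% and 7.81%, and TTCNNNGAA in 9.09% and 8.3%. A match describes letters in the window and no bound factor.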

How the data were processed

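Bulk RNA sequencing of mouse retina gave 9 libraries in 3 groups (Gel, PBS, Normoxic; n = 3 each), grouped by the labels, with 1 batch date. The deposited counts per gene are whole numbers. The tools were RSEM 1.3.1, Bowtie2 and DESeq2 1.4.5 and the build GRCm39, per the submitters' processing notes, which name no role for them, and no source used here says whether the counts are rounded estimates. The FPKM values deposited by the authors equal count over library total and over 1 length per gene (relative spread at most 2.89e-10), so they served for levels per length and for gene length. The depth of 29324142 to 35663470 counts puts 1 CPM at about 30 counts.

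Genes were filtered with filterByExpr (minimum count 10), which kept 17362. Libraries were scaled by TMM and fitted in edgeR 4.0.16 (R 4.3.3) by the quasi-likelihood F test over all 9 libraries, with no term but group, Benjamini-Hochberg adjusted over all kept genes, threshold 0.05. SE was taken as the absolute log2 fold change over the root of F. The test was run on simulated counts drawn independently for each gene, with no trend of counts with gene length. That run does not show the error rate of the test in libraries that hold such a trend. Alternatives were other size factors, DESeq2 1.42.0, limma-voom (limma 3.58.1), no filter, only the groups compared, the replicate number as a block, removal of the length trend (lowess on log length, span 0.3) and leaving out each library. The members, classes, marker and comparison lists were chosen with earlier results of these data known. Genes named are every called gene, those with the highest FPKM in each class, a fixed panel, the 5 with the smallest p among those not called, and Kcnj8 and Kcnj10. No gene coordinates are given beyond RefSeq promoter windows of GRCm38.p6, because the genome used here is of another build than the notes name. Some genes that the rule names are not reported here.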

Additional observations from a re-analysis of the deposited data

How the results depend on the processing

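Of 640 single-gene values under the alternatives, 495 kept their direction and side of the threshold, 113 dropped out of the calls, 32 entered them, and 0 reversed. In PBS versus Normoxic, Kcnip2, Kcnk9, Kcnj14, Kcnj9, Kcnc2 and Kcnq1 were called under all 16 alternatives. Of these, Kcnq1 passed the low-count filter through the Gel and PBS libraries, where it is high. Fitting only the groups compared gave 7 genes lower in PBS versus Normoxic, and 3 higher and 10 lower in Gel versus Normoxic. In Gel versus Normoxic the genes called higher numbered 2 with the length trend removed and 3 with DESeq2. Kcnq1 and Kcnk6 were among these, and both passed the low-count filter through the Gel and PBS libraries, where they are high. DESeq2 called 21 lower and 5 higher in PBS versus Normoxic and 9 lower in Gel versus Normoxic. Leaving out 1 library gave 1 to 4 higher and 5 to 19 lower in PBS versus Normoxic, 0 to 3 higher and 0 to 10 lower in Gel versus Normoxic, and 0 in Gel versus PBS. Each such fit holds fewer samples, and the cause of these ranges was not tested. The median log2 fold change ran from -0.36 to -0.22 in PBS versus Normoxic, from 0.03 to 0.14 in Gel versus PBS and from -0.26 to -0.15 in Gel versus Normoxic. The membership minimum at 30 or 300 counts gives 88 or 68 genes.

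The labels give the groups shared replicate numbers. Deviations of same-numbered libraries correlated at -0.07, -0.06 and -0.05 between PBS and Normoxic, at 0.33, -0.21 and 0.36 between Gel and PBS, and at -0.08, -0.04 and -0.10 between Gel and Normoxic. Different-numbered libraries of Gel and PBS correlated at -0.51 to 0.31. These values cannot show whether same-numbered libraries were paired, and the labels name no pairing. With the replicate block 3 genes were higher and 14 lower in PBS versus Normoxic, 1 higher and 4 lower in Gel versus Normoxic, and 0 in Gel versus PBS. The block ended the edgeR calls of Kcnip3 (adjusted p 0.0666), Kcnk12 (0.0794) and Kcnk6 (0.0666) in PBS versus Normoxic and of Kcnj5 (0.0753) and Kcna4 (0.0716) in Gel versus Normoxic, and Kcnc1 was called in PBS versus Normoxic (0.0482). Depth limits the low genes most: Kcnq1, Kcne4, Kcnk6 and Kcnmb1 rest on fewer than 30 counts in every Normoxic library.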

Other observations

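Among the 15 Kcn genes under the count minimum, 2 passed the filter on low counts, Kcne3 and Kcnh3, and both are named after their values were seen. Kcne3, which encodes a single-span auxiliary subunit that can hold Kv7.1 open, had 11, 12 and 14 counts in Gel libraries, 12, 14 and 11 counts in PBS libraries and 1, 2 and 0 counts in Normoxic libraries. All Gel and PBS libraries lay above all Normoxic libraries. It passed the filter through the Gel and PBS libraries, where it is high, so these counts are a description and no test is given. Kcnh3, which encodes the Kv12.2 subunit, had 2, 1 and 1 counts in Gel libraries, 11, 12 and 8 counts in PBS libraries and 8, 6 and 11 counts in Normoxic libraries. All Gel libraries lay below all PBS and Normoxic libraries. Kcnh3 passed the filter through PBS and Normoxic libraries, where it is high, and this choice favours a lower Gel value. Its p-value thus serves as a description, and the gene was not called in Gel versus PBS (edgeR adjusted p = 0.447). Kcnn4, the calcium-activated channel of microglia and other immune cells, had 2, 2 and 1 counts in Gel libraries, 0, 3 and 2 in PBS libraries and 1, 0 and 1 in Normoxic libraries, too few to compare.

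Kcna5, Kcna1 and Kcna6, 3 Kv1 genes that follow each other along a chromosome, had log2 fold changes of -0.54 ± 0.13, -0.34 ± 0.12 and -0.19 ± 0.10 in PBS versus Normoxic (SE), and of these Kcna5 was called.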
